A study of Mus musculus with 4 samples.

Results

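The genes described are the MAP kinase cascade and the dual-specificity phosphatases of mouse sciatic nerve. They were taken by symbol alone, as every gene whose symbol begins with Mapk, Map2k, Map3k or Dusp followed by a digit, which gave 70 members of the 50593 genes in the table. RNA sequencing was performed on sciatic nerve of HSF V30M TTR mice and HSF WT TTR mice, labelled as strain 129S1/SvImJ and 6 months of age, with 2 labelled samples in each group. Per the study's methods, HSF V30M mice carried the human TTR V30M transgene without endogenous Ttr, HSF WT mice were the wild-type controls, and both groups carried a heterozygous deletion of Hsf-1 on an Sv/129 background. The human transgene and the loss of endogenous Ttr therefore differ together between the groups and cannot be told apart. The promoter that drives the transgene was not given in the sources used here. The methods state n = 4 for the sequenced nerves and do not say if that counts 1 group or both. Both groups are listed as heterozygous for Hsf-1. Hsf1, the heat shock factor gene, was listed at 7.94 FPKM in HSF V30M and 15 FPKM in HSF WT. These are 1 value per group with no spread between mice, and the reason for the difference was not tested.

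The MAP kinase cascade is a relay of 3 protein kinases in series. A MAP kinase kinase kinase phosphorylates a MAP kinase kinase, which phosphorylates a MAP kinase on a threonine and a tyrosine of its activation loop, and the MAP kinase then acts on transcription factors and further kinases. Dual-specificity phosphatases can remove phosphate from both residues, and several of those that act on MAP kinases are themselves induced by the cascade. In peripheral nerve, ERK signalling in Schwann cells is known for its part in myelination and in the response to injury, and JNK and p38 signalling for the response to stress and inflammation. Phosphorylation and its removal act on proteins, whereas the values described below are levels of RNA.

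The 3 classes of classical MAP kinase can be told by the residue between the 2 phosphorylated ones. The coding sequences below, from GENCODE transcripts of GRCm38, are shown because the results are ordered by these classes; capitals mark the codons for threonine, the middle residue and tyrosine, where the middle residue is glutamate in ERK-type, proline in JNK-type and glycine in p38-type kinases.
Mapk3: ggctttctgACGGAGTATgtggccaca
Mapk7: tacttcatgACTGAGTATgtggctact
Mapk8: tttatgatgACGCCTTATgtggtgact
Mapk9: tttatgatgACTCCCTATgtggtaact
Mapk14: gatgagatgACAGGCTACgtggctacc
These coding stretches lie at chr7:126763449-126763475 (plus strand, exon 4) for Mapk3 and chr11:61491413-61491439 (minus, exon 4) for Mapk7. Those of the JNK-type genes lie at chr14:33392994-33393020 (minus, exon 6) for Mapk8 and chr11:49872821-49872847 (plus, exon 6) for Mapk9, and that of p38-type Mapk14 at chr17:28728390-28728416 (plus, exon 7).

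The phosphatases share a short catalytic loop in which a cysteine takes up the phosphate and an arginine binds it. A search of the coding sequences for histidine, cysteine, any 5 residues and arginine, followed by serine, threonine or alanine, found this loop in 22 of the 24 Dusp genes and did not find it in Dusp27 and Dusp28. Its codons are shown for the 5 phosphatase genes that differed most between the groups and for Dusp6 and Dusp1, the members of highest level among the MAP kinase phosphatases, with the cysteine and arginine codons in capitals.
Dusp26: cacTGTgcggtgggagtgagcAGA
Dusp23: cacTGTgccctaggctttggcCGC
Dusp7: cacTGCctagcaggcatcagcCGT
Dusp14: cacTGTgcggcaggcgtgagcCGC
Dusp10: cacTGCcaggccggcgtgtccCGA
Dusp6: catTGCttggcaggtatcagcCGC
Dusp1: catTGCcaggccggcatctccCGG
In the genome, the loop codons lie at chr8:31096203-31096226 (plus strand, exon 5) for Dusp26, chr1:172631791-172631814 (minus, exon 2) for Dusp23, chr9:106373674-106373697 (plus, exon 3) for Dusp7, chr11:84048863-84048886 (minus, exon 4) for Dusp14 and chr1:184074293-184074316 (plus, exon 4) for Dusp10. For Dusp6 they lie at chr10:99266027-99266050 (plus, exon 3) and for Dusp1 at chr17:26506592-26506615 (minus, exon 4).

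Levels are in FPKM, the fragments of a gene scaled to the length of its transcript and to the size of the library, and the authors' table gives 1 value per group over its libraries. With no value per mouse, the spread between mice is unknown, no test could be run, and every difference below is a description of these 2 values. Single-transcript genes placed the depth, on the scale of the authors' normalization, at 10900000 and 12700000 fragments for the HSF V30M libraries and 7730000 and 10400000 for those of HSF WT. From this, the fragments of a gene over both libraries of its group and an exact 95% Clopper-Pearson interval of each fold were derived, which cover counting error only. The main measure is the log2 ratio of FPKM + 1, HSF V30M over HSF WT, and a gene is called past the fold at 1.5 or more in either direction with a mean FPKM of at least 1. In bulk nerve, fewer cells of a type and less RNA per cell cannot be told apart.

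Of the 70 members, 55 had a mean FPKM of at least 1. The mean lay between 1 and 10 in 29 of them and between 10 and 100 in 24, and the other 2, Mapk3 and Dusp15, were above 100 FPKM in both groups. Past the fold, 5 members (9.09%) were higher in HSF V30M, namely Dusp26, Dusp23, Dusp7, Mapk7 and Map3k21, beside 8.22% of all 15620 genes with that mean. In the other direction, 2 members (3.64%), Dusp14 and Dusp10, were lower, beside 8.44% of all genes. At a mean of at least 5, 3 of 39 members were higher and 1 lower, beside 7.17% and 6.33% of 10205 genes. Among the 12715 protein-coding genes alone, 5.03% were higher and 5.32% lower. With counts this small, the shares of the members lie near those of other genes, and nothing particular to the families is read from them. The remaining 48 members were within the fold, and the median log2 ratio of the 55 was 0.03, beside 0.00 over all genes. Their median absolute log2 ratio was 0.21, beside 0.20 over protein-coding genes.

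**Figure D1:**
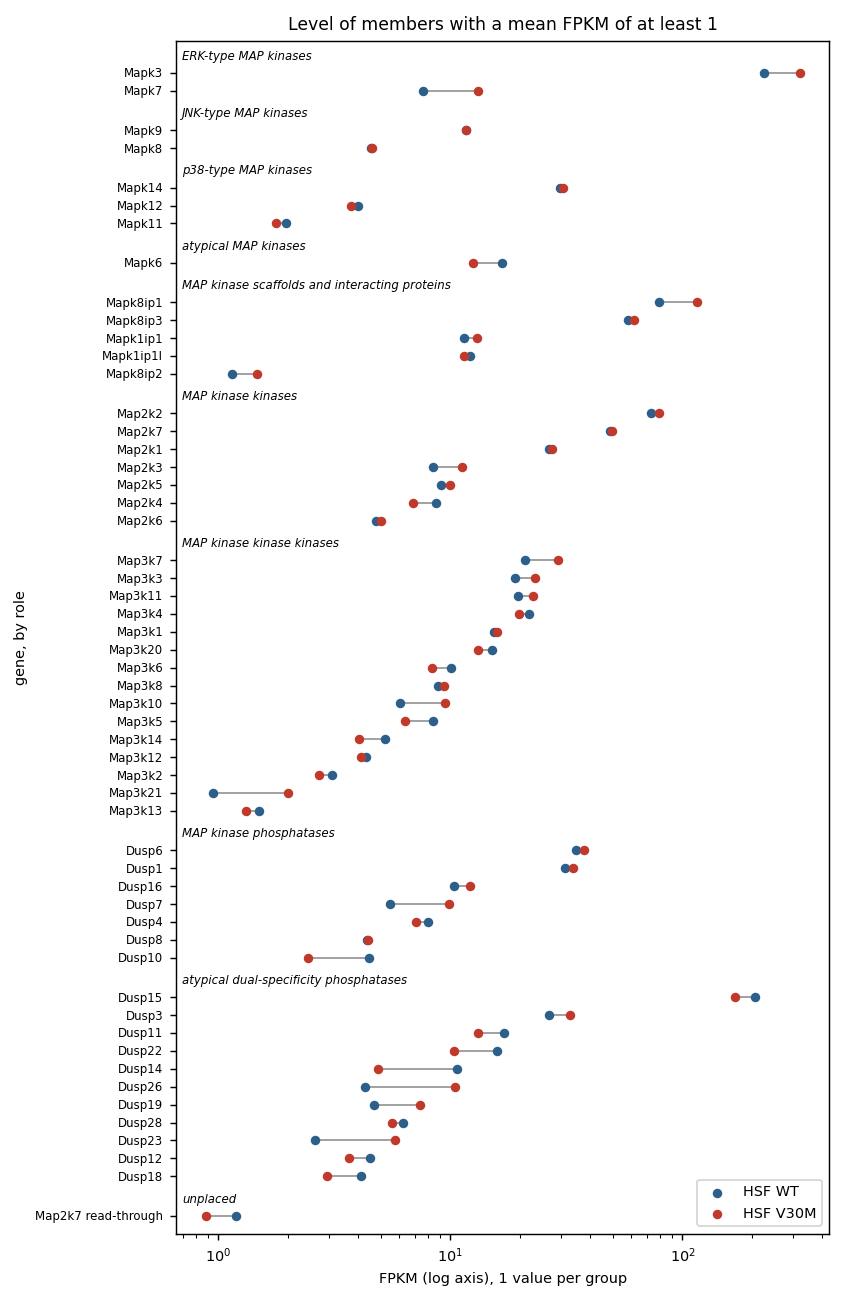
FPKM of 54 of the 55 members with a mean FPKM of at least 1 (log axis), grouped by role and ordered by mean level, with HSF V30M in red and HSF WT in blue and 1 value per group. Mapk3, Dusp15 and Mapk8ip1 lie to the right of the other members in both groups, and the widest gaps are those of Dusp26, Dusp23, Dusp14 and Map3k21.

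**Figure D2:**
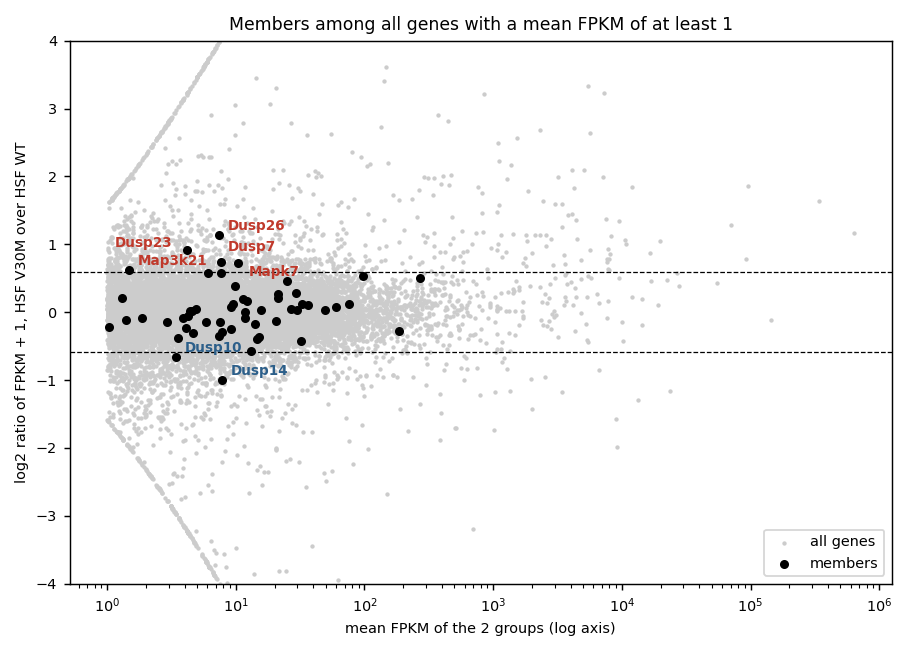
Log2 ratio of FPKM + 1 (HSF V30M over HSF WT) against the mean FPKM of the 2 groups (log axis), with all 15620 genes in grey, the 55 members in black, and dashed lines at the 1.5-fold. The members lie within the grey cloud between -1.0 and 1.13, and the 7 past the lines are named. The axis stops at a log2 ratio of 4 in either direction, which leaves out 195 genes, none of them a member.

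The ERK-type kinases, which relay growth factor signals, held the highest level and the widest differences among the classical MAP kinases with a mean of at least 1. Mapk3, which encodes ERK1, was listed at 320 FPKM in HSF V30M and 224 FPKM in HSF WT, a fold of 1.43 (counting interval 1.37 to 1.48) and a log2 ratio of 0.51, within the fold. Mapk3 made up 75.1% of the summed FPKM of the 13 MAP kinase genes in HSF V30M and 66.2% in HSF WT.

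The GC content of Mapk3, as the median over its coding transcripts in the GENCODE basic set, was 57.6%. Across 12704 protein-coding genes the log2 ratio went with GC content, with a Spearman coefficient of 0.17, and from the lowest to the highest of 10 equal bins of GC content the median log2 ratio went from -0.05 to 0.13. After subtracting the median of its bin, Mapk3 stood at 0.44. Another ERK-type gene, Mapk7, encodes ERK5, a large kinase activated by Map2k5, and was past the fold, at 13.1 FPKM in HSF V30M and 7.61 FPKM in HSF WT. Its fold was 1.73 (1.52 to 1.97) and its log2 ratio 0.72, from 806 to 1021 fragments in HSF V30M and 331 to 485 in HSF WT. Mapk7 (chr11:61488812-61494406, minus strand) shares 89 exonic bases with Mfap4 on the opposite strand, itself listed at 4.81 FPKM and 8.93 FPKM, and whether counting used strand was not given in the sources used here.

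The stress-activated MAP kinases with a mean of at least 1 were at nearly equal levels in the groups. Mapk9, which encodes JNK2, was listed at 11.7 FPKM in each group, a fold of 1.0 (0.830 to 1.21). Mapk8, which encodes JNK1, was at 4.57 FPKM in HSF V30M and 4.55 FPKM in HSF WT, a fold of 1.0 with a wider interval of 0.692 to 1.47, since its shortest coding transcript allows few fragments. The neuronal JNK3 gene Mapk10 was below the minimum, at 0.210 FPKM in HSF V30M and 0.679 FPKM in HSF WT. Its fold was 0.309 (0.132 to 0.671), from 10 to 38 and 24 to 100 fragments in the same order.

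Among p38-type kinases, Mapk14, which encodes p38 alpha, held nearly all of the RNA, with 30.4 FPKM in HSF V30M and 29.7 FPKM in HSF WT, a fold of 1.02 (0.899 to 1.17). Mapk12, the p38 gamma gene, was at 3.72 and 4.0 FPKM, a log2 ratio of -0.08, and Mapk11, the p38 beta gene, at 1.77 and 1.95 FPKM, a log2 ratio of -0.09. Mapk13, the p38 delta gene, was close to the limit of detection, at 0.220 FPKM in HSF V30M and 0.0492 FPKM in HSF WT, where 3 fragments correspond to 0.0503 and 0.0709 FPKM. Its fold of 4.47 (1.01 to 40.8) rested on 13 to 16 fragments in HSF V30M and 2 to 3 in HSF WT. The counting intervals of the JNK-type and p38-type members with a mean of at least 1 all included a fold of 1. The Mapk14 interval leaves out a fold of 1.5 in either direction for counting error, and the spread between mice was not measured. Mapk12 is best known from skeletal muscle. The 10 skeletal muscle markers summed to 48.2 FPKM in HSF V30M and 173 FPKM in HSF WT, with all 8 of those at a mean of at least 1 lower and none of the list at 0, and their part in the Mapk12 value was not tested.

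Of the atypical MAP kinases, which lack the usual activation loop or its upstream kinases, only Mapk6, the ERK3 gene, passed the minimum, at 12.5 FPKM in HSF V30M and 16.7 FPKM in HSF WT, a log2 ratio of -0.39 and a fold of 0.748 (0.686 to 0.817). Mapk15 was listed at 0.60 and 0.252 FPKM and Mapk4 at 0.280 and 0.633 FPKM, in the same order of groups.

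**Figure D3:**
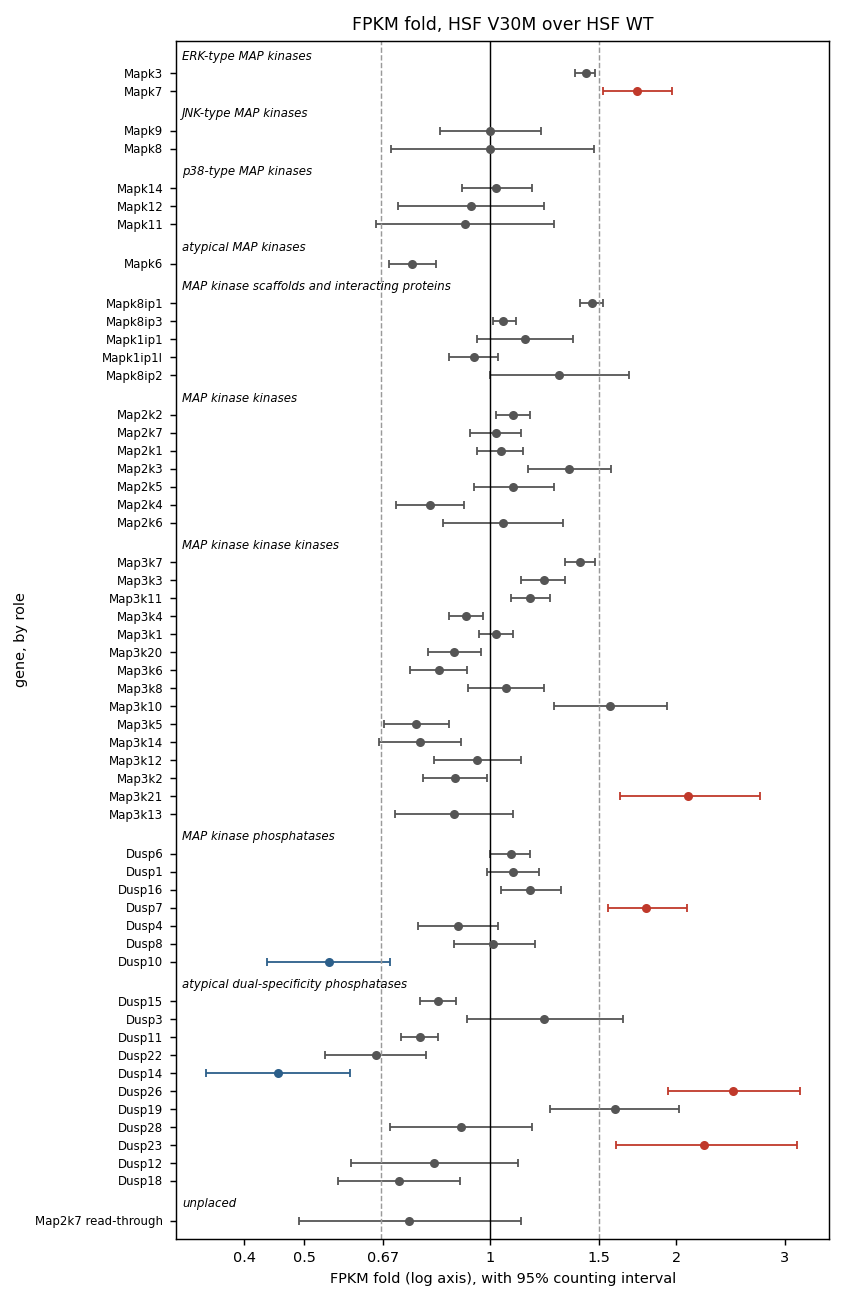
FPKM fold of HSF V30M over HSF WT for 54 of the 55 members (log axis), grouped by role, with 95% counting intervals, red for members higher and blue for members lower past the fold, and dashed lines at a plain 1.5-fold. The JNK-type and p38-type kinases and most MAP kinase kinases sit close to 1, whereas the phosphatases spread from 0.454 to 2.47. Map3k10, Dusp19 and Dusp22 lie past the dashed lines and keep the grey of members within the fold, because calls are made on FPKM + 1.

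Scaffold proteins hold the kinases of a cascade together and thereby steer its output. Mapk8ip1, which encodes the JNK scaffold JIP1, was the highest member after Mapk3 and Dusp15, at 116 FPKM in HSF V30M and 79.3 FPKM in HSF WT, a fold of 1.46 (1.40 to 1.52) and a log2 ratio of 0.54, just within the fold. It shares 96 exonic bases on the opposite strand with a gene listed at 14.1 and 7.28 FPKM. Mapk8ip3, the JIP3 gene known for axonal transport, was at 61.5 and 58.3 FPKM, a log2 ratio of 0.07. Mapk8ip2, a relative of Mapk8ip1, was at 1.47 and 1.14 FPKM, and the log2 ratios of this gene and the remaining members of the group lay between -0.08 and 0.21.

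The 7 MAP kinase kinases were all within the fold, with log2 ratios between -0.29 and 0.38 and a median of 0.05. The highest was Map2k2, which encodes the ERK activator MEK2, at 79.6 FPKM in HSF V30M and 73.2 FPKM in HSF WT, a fold of 1.09 (1.02 to 1.16). Its partner Map2k1, the MEK1 gene, was at 27.5 and 26.5 FPKM, so Map2k2 stood at 2.90 times the level of Map2k1 in HSF V30M and at 2.76 times in HSF WT.

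The p38 activators Map2k3 and Map2k6 were at 11.2 and 5.0 FPKM in HSF V30M and at 8.38 and 4.78 FPKM in HSF WT, and Map2k3 had the highest log2 ratio of the tier, 0.38. The JNK activators differed in direction, with Map2k7 at 49.9 and 48.9 FPKM and a log2 ratio of 0.03 and Map2k4 at 6.92 and 8.66 FPKM and a log2 ratio of -0.29. A second identifier carries the symbol Map2k7, a read-through transcript joined to Tgfbr3l that shares 1349 exonic bases with Map2k7, and it was listed at 0.880 and 1.19 FPKM, a level at which reads may be split between the pair. Map2k5, the activator of ERK5, was at 9.97 and 9.12 FPKM, a log2 ratio of 0.12, beside the 0.72 of its target Mapk7.

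The 18 MAP kinase kinase kinases, the entry tier that receives signals from receptors and small GTPases, included 15 with a mean of at least 1, of which 7 had a log2 ratio above 0 and 8 below. Map3k7, which encodes TAK1, the kinase below Toll-like and interleukin receptors, had the highest mean level of the tier, at 29.1 FPKM in HSF V30M and 20.9 FPKM in HSF WT, a fold of 1.40 (1.32 to 1.48) and a log2 ratio of 0.46. Map3k21, a mixed-lineage kinase gene, was the only member of the tier past the fold, at 1.99 FPKM in HSF V30M and 0.952 FPKM in HSF WT, a fold of 2.09 (1.62 to 2.73) and a log2 ratio of 0.62. It rested on 238 to 279 fragments in HSF V30M and 80 to 109 in HSF WT, and lies at chr8:125910450-125947440 (plus strand).

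Other mixed-lineage kinase genes did not share one value. Map3k10 was just within the fold at 9.43 and 6.04 FPKM, a log2 ratio of 0.57, Map3k11 was at 22.7 and 19.5 FPKM, a log2 ratio of 0.21, and Map3k9 was below the minimum at 0.320 and 0.201 FPKM. The stress kinase gene Map3k5, which encodes ASK1, was lower within the fold, at 6.39 and 8.41 FPKM, a log2 ratio of -0.35, and Map3k14, the kinase of the noncanonical NF-kappaB pathway, was at 4.03 and 5.23 FPKM, a log2 ratio of -0.31. Map3k12, the DLK gene known for the injury response of axons, was at 4.12 and 4.33 FPKM, a log2 ratio of -0.06, with 1573 of its exonic bases shared with Pcbp2 on the opposite strand, a gene listed at 40.4 and 20.1 FPKM. Map3k8, the Tpl2 gene, was at 9.39 and 8.86 FPKM, a log2 ratio of 0.08. The remaining members with a mean of at least 1, Map3k1, Map3k2, Map3k3, Map3k4, Map3k6, Map3k13 and Map3k20, lay between -0.25 and 0.27.

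The MAP kinase phosphatases are the Dusp proteins with a docking domain for MAP kinases, and 7 of their 10 genes passed the minimum. Dusp6, a cytoplasmic phosphatase that prefers ERK and is induced by it, was the highest, at 37.6 FPKM in HSF V30M and 34.8 FPKM in HSF WT, a fold of 1.08 (1.0 to 1.16). Dusp1, an immediate early gene whose product acts in the nucleus, was at 33.9 and 31.1 FPKM, a fold of 1.09 (0.988 to 1.2). These 2 genes together held most of the RNA of the group, 34.5% and 31.1% of its summed FPKM in HSF V30M and 34.5% and 30.9% in HSF WT, nearly the same shares in both.

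Further down the order, Dusp7 and Dusp10 differed between the groups in opposite directions. Dusp7, a cytoplasmic relative of Dusp6 that also prefers ERK, was higher in HSF V30M, at 9.85 FPKM against 5.49 FPKM, a fold of 1.79 (1.55 to 2.08) and a log2 ratio of 0.74, from 646 to 755 and 255 to 345 fragments in the same order. Dusp10, which prefers JNK and p38, was lower, at 2.43 FPKM against 4.44 FPKM, a fold of 0.548 (0.435 to 0.688) and a log2 ratio of -0.66, from 137 to 161 and 177 to 240 fragments. Dusp7 lies at chr9:106368632-106375724 (plus strand) and Dusp10 at chr1:184013302-184075636 (plus strand). Dusp16, Dusp4 and Dusp8 were within the fold, with log2 ratios of 0.20, -0.15 and 0.02, and Dusp5, Dusp2 and Dusp9 were below the minimum.

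The atypical dual-specificity phosphatases, small proteins without that docking domain, held the highest and the lowest log2 ratio of all 55 members. Dusp26, described in neural tissue, was at 10.5 FPKM in HSF V30M and 4.27 FPKM in HSF WT, a fold of 2.47 (1.94 to 3.17) and a log2 ratio of 1.13, from 303 to 466 and 87 to 155 fragments in the same order. Dusp14 was at 4.85 FPKM in HSF V30M and 10.7 FPKM in HSF WT, a fold of 0.454 (0.346 to 0.593) and a log2 ratio of -1.0, from 93 to 170 and 145 to 305 fragments. On plain FPKM, Dusp26 stood at 2.17 times the level of Dusp14 in HSF V30M and at 0.399 times in HSF WT. The pair was taken as the highest and lowest log2 ratio, so a wide difference between the groups, 5.44-fold, followed from the choice. Dusp23, one of the smallest phosphatases of the family, was at 5.77 FPKM in HSF V30M and 2.60 FPKM in HSF WT, a fold of 2.22 (1.6 to 3.14) and a log2 ratio of 0.91, from 151 to 178 and 48 to 66 fragments.

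Dusp26 lies at chr8:31089471-31097047 (plus strand), Dusp14 at chr11:84048041-84069261 (minus strand) and Dusp23 at chr1:172630764-172632962 (minus strand). In the GENCODE annotation none of these 3, nor Dusp7, Dusp10 or Map3k21, shares exonic bases with another gene. Dusp14 is known for restraining T cell receptor signalling. The 7 T cell markers summed to 3.62 FPKM in HSF V30M and 15.9 FPKM in HSF WT, with 4 of the 4 at a mean of at least 1 lower and none of the list at 0, and their part in the Dusp14 value was not tested.

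Dusp15 was the highest phosphatase of all, at 169 FPKM in HSF V30M and 205 FPKM in HSF WT, a fold of 0.822 (0.769 to 0.879) and a log2 ratio of -0.28. The gene is known from myelinating glia as a target of the factor Sox10, and it held 63.5% of the summed FPKM of the atypical group in HSF V30M and 67.8% in HSF WT. Sox10 itself was listed at 75.7 and 54.8 FPKM, a log2 ratio of 0.46, opposite in direction to Dusp15. The part of Sox10 in the Dusp15 value was not tested. The 10 Schwann cell markers had a median log2 ratio of 0.23, with 1 of them, S100b, past the fold at 328 and 201 FPKM, and none at 0, so the defining markers of myelinating nerve were present in both groups. Of the other members, Dusp22 and Dusp19 were just within the fold at -0.57 and 0.57, while Dusp3, Dusp11, Dusp12, Dusp18 and Dusp28 lay between -0.38 and 0.28. Dusp13 and Dusp27 were below the minimum, and Dusp21 was listed at 0 in both groups, where 3 fragments on its transcript would correspond to 0.214 FPKM in HSF V30M and 0.301 FPKM in HSF WT.

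The threshold separated neighbouring values. The lowest values past the fold in absolute log2 ratio were the 0.62 of Map3k21 and the 0.66 of Dusp10, and the highest within it were the 0.57 of Dusp22, Dusp19 and Map3k10 and the 0.54 of Mapk8ip1. With a pseudocount of 0.1 in place of 1, which weighs low genes more, Dusp19 and Map3k10 joined the higher members and Dusp22 the lower. Of the 15 members below a mean of 1, the highest value in either group was 1.06 FPKM, 14 were above 0 in both groups, and 6 were higher and 8 lower in HSF V30M. They include Map3k7cl, at 0.870 and 0.321 FPKM, and Map2k3os, at 0.580 and 1.06 FPKM, both of which bear a member's symbol without being a kinase. The Map2k3os gene lies on the strand opposite to Map2k3, with 165 bases between them.

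The members past the fold differed in GC content by direction. The 5 higher members had a GC content between 54.0% and 58.4%, and the 2 lower members one of 48.4% and 52.1%. Just within the fold, Map3k10 (65.2%, log2 ratio 0.57) and Dusp22 (48.2%, -0.57) followed this order, and Dusp19 (42.7%, 0.57) did not. In the GC range of the higher members, other members lay on both sides of 0, such as Mapk3 (57.6%, 0.51) and Dusp15 (56.8%, -0.28). Over the 54 members with a GC value and a mean of at least 1, the Spearman coefficient between GC content and log2 ratio was 0.33, a description over genes of the same libraries. After subtracting the median of all protein-coding genes in the same GC bin, 6 of these 54 were higher, the same 5 with Dusp19. Lower were 2, Dusp14 and Dusp10, beside 4.68% higher and 5.37% lower among the 12704 genes with a GC value. The higher share of members was thus above that of the genes and the lower share below it, and with counts this small nothing is read from this.

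**Figure D4:**
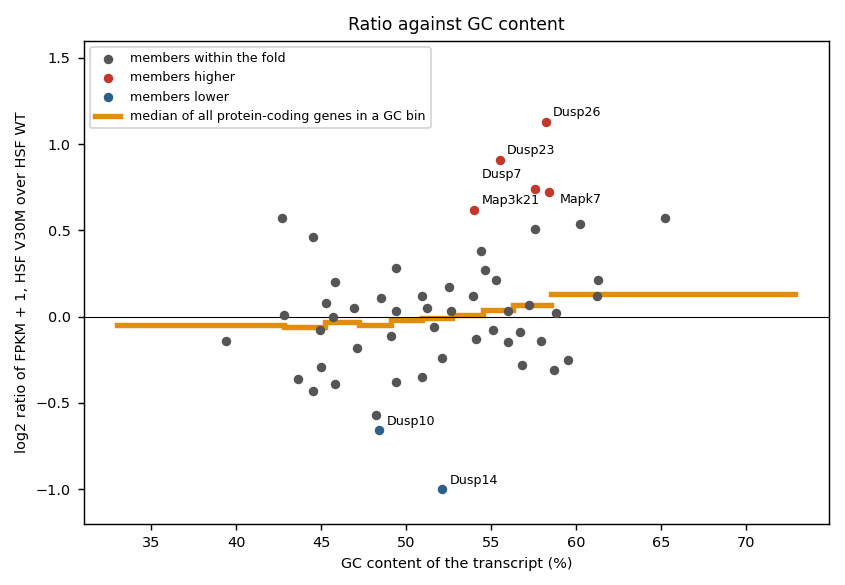
Log2 ratio of FPKM + 1 (HSF V30M over HSF WT) against GC content in percent, for the 54 members with both values. The GC content of a gene is the median over its coding transcripts. Orange bars give the median log2 ratio of all protein-coding genes in each of 10 bins of GC content. The bars go from -0.05 to 0.13 from left to right, and the 5 higher members, in red, lie between 54.0% and 58.4%.

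Genes around the cascade that carry other symbols were read from 6 lists of 77 genes, all with a mean FPKM of at least 1. Of these, 1 was past the fold higher and 4 lower, neither share above the 8.22% and 8.44% of all genes. The 16 genes of Ras and Raf input were all within the fold with a median of 0.04, and the highest was Rras at 52.3 and 51.3 FPKM. The 7 MAP4 kinases had a median of -0.24 and none past the fold, and the highest was Map4k4 at 137 FPKM in HSF V30M and 166 FPKM in HSF WT.

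The 10 kinases that MAP kinases phosphorylate included 3 of the 4 lower genes. Rps6ka3, which encodes the ERK target RSK2, was at 14 FPKM in HSF V30M and 29.5 FPKM in HSF WT, a log2 ratio of -1.02, close to that of Dusp14. Mknk1, a kinase of the translation factor eIF4E, was at 19.1 and 32.4 FPKM, a log2 ratio of -0.73, and Mapkapk3, a p38 target, at 3.99 and 6.71 FPKM, a log2 ratio of -0.63. Relatives of these genes, all within the fold, lay on both sides. Rps6ka1 and Rps6ka2 were lower with log2 ratios of -0.36 and -0.34, and Rps6ka4 and Rps6ka5 were higher with 0.48 and 0.30. Mknk2, the highest of the list, was at 56.4 and 37.8 FPKM with a log2 ratio of 0.56. Mapkapk2 was at 24.6 and 21.2 FPKM with a log2 ratio of 0.21. The list as a whole had a median of -0.09.

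Among 24 transcription factors downstream of MAP kinases, Mef2c, a target of p38 and ERK5, was lower at 14.4 and 25.0 FPKM, a log2 ratio of -0.75, and the other 23 were within the fold. The 7 genes of the Fos and Jun families lay on both sides of 0, from -0.18 for Fosb to 0.39 for Jund, with 0.38 for Fosl1, 0.32 for Junb, 0.13 for Jun, 0.09 for Fos and -0.03 for Fosl2. By mean level the highest of the list was Jund, at 52.4 and 39.7 FPKM. Of 9 feedback inhibitors that are not phosphatases, Spred2, which blocks Raf activation by Ras, was higher at 10.1 and 6.00 FPKM, a log2 ratio of 0.66, and the highest was Errfi1 at 32.1 and 24.8 FPKM. The 11 genes from Toll-like receptor 4 to TAK1 were all within the fold with a median of -0.04, with Tlr4 at 8.70 and 8.57 FPKM and Tab2, the highest by mean level, at 44.8 and 35.9 FPKM.

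**Figure D5:**
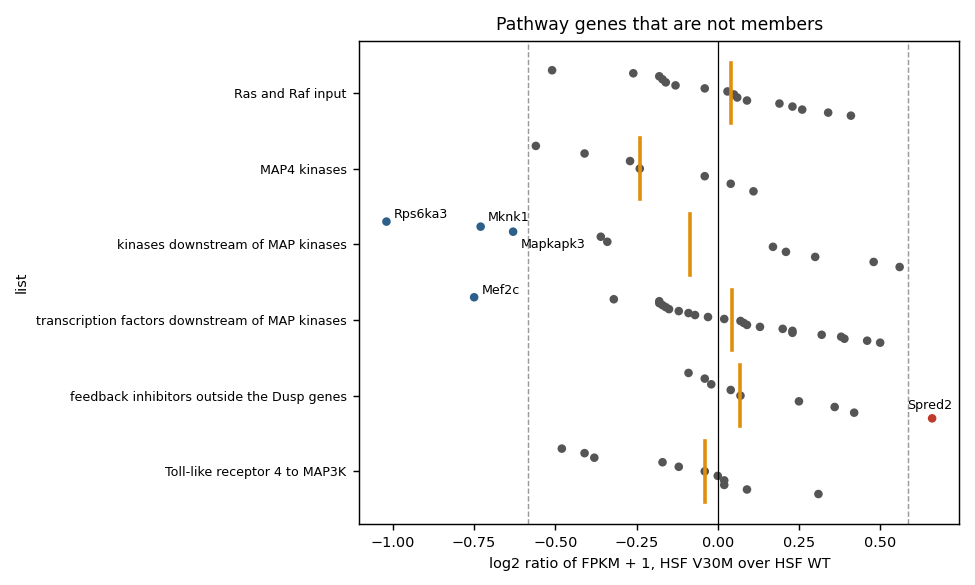
Log2 ratio of FPKM + 1 (HSF V30M over HSF WT) of the 77 genes of 6 pathway lists, 1 point per gene, with the median of each list as an orange bar and dashed lines at the 1.5-fold. The named points past the lines are Spred2 on the right and Rps6ka3, Mknk1, Mapkapk3 and Mef2c on the left.

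Several lists of markers of other cell types differed between the groups, and others did not. Over the 7 neutrophil markers, 6 were higher and 1 lower with a median log2 ratio of 1.6 (summed level 107 FPKM in HSF V30M and 32.3 FPKM in HSF WT), and 5 of 6 erythrocyte markers were higher (291 and 101 FPKM). B cell markers were lower, 5 of the 5 at a mean of at least 1 (4.51 and 33.7 FPKM), as were 3 of 6 adipocyte markers (1250 and 1892 FPKM) and 2 of 6 macrophage markers (84.9 and 113 FPKM). Of 8 fibroblast and perineurial markers none was past the fold, and of 6 endothelial markers 1, Cldn5, was higher at 100 and 57.9 FPKM. No marker of any list was at 0 in either group, and the part of these cell types in the members' values was not tested.

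Members were also described by position and promoter. Chromosome 11 held 11 of the 70, among them Mapk7 and Dusp14, and 2 pairs of p38-type genes lie side by side, Mapk12 and Mapk11 with 1782 bases between them and Mapk14 and Mapk13 with 20890. RefSeq promoters (GRCm38.p6, 250 bases before to 50 after the gene start) were found for 52 of the 69 member symbols, including 6 of the 7 past the fold, all but Dusp26. On either strand, the heat shock element GAANNTTC was found in 3 of the 52 (5.77%), Dusp16, Map2k7 and Mapk11, beside 7.95% of all 27025 promoters, and its 3-unit form in 0, beside 0.529%. The cAMP response element TGACGTCA was found in 3 (5.77%), Dusp1, Dusp8 and Mapk10, beside 1.88%, the AP-1 site TGANTCA in 3 (5.77%), beside 7.93%, and the serum response CArG box in 1, Dusp5, beside 1.57%. None of the 6 matched promoters of members past the fold held any of these motifs.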

How the data were processed

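RNA from sciatic nerve of HSF V30M and HSF WT mice was sequenced with Ion Torrent protocols, 2 labelled samples per group. The authors had reads aligned to GRCm38, which is based on strain C57BL/6J, and compared the groups with Cuffdiff. The submitters' processing notes name STAR, Cufflinks and Cuffdiff, and their versions, the annotation and the strand setting were not given in the sources used here. The deposited table gives 1 FPKM value per group, written with decimal commas, as normalized by the authors' Cuffdiff run. Its columns of log2 fold change, test statistic, p-value, q-value and significance are the authors' own comparison and were not used. The 23 genes marked as having too many alignments were left out.

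From the FPKM values, log2 ratios with a pseudocount of 1, calls at a fold of 1.5 with a mean of at least 1, sums and ratios were computed, in place of any test. Samples were grouped by title, and with no value per mouse no test between mice was computed. The worth of 1 fragment per library was read from 8979 single-transcript genes with 201 bases taken from the length, 0.0393 and 0.0459 FPKM kilobases in HSF V30M and 0.0480 and 0.0647 in HSF WT. Intervals use the smaller estimates of fragments, and a limit at 0 is 3 fragments, over both libraries of a group. Both steps were tested on simulated data. Gene positions, coding sequences and GC content are from GENCODE M21, in which all 70 identifiers were found. Promoters are from RefSeq, 1 per symbol. Full values were given for members past the fold, for the highest member of each role and for ERK-type, JNK-type and p38-type kinases. Genes outside the families were taken from the lists, those past the fold or highest. Map2k1, Map3k5, Sox10, Mapkapk2, Rps6ka1, Fos and other genes named beyond this rule were chosen after their values were seen. The values of 1 member are not reported here, though it is counted. The members and lists were chosen with earlier results of these data known. Alternatives were a pseudocount of 0.1 or none, no minimum or a minimum of 5, median-of-ratios scaling (factors 1.001 and 0.999), a fold of 2, placed members alone, and centring on GC content. Values were computed with numpy 2.4.6 and pandas 2.3.3 under Python 3.11.15, intervals with scipy 1.17.1, and plots were drawn with matplotlib 3.10.9.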

Additional observations from a re-analysis of the deposited data

How the results depend on the processing

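Median-of-ratios scaling, no minimum, and leaving out members without a role each gave 5 higher and 2 lower members, the same 7 genes. With a minimum mean of 5, 3 of 39 members were higher (Dusp26, Dusp7 and Mapk7) and 1 lower (Dusp14), since the others lie below that minimum. At a fold of 2, 1 member was higher (Dusp26) and 0 lower, beside 3.98% and 3.94% of all genes, and Dusp14 missed that fold only in the digits beyond 2.0. A pseudocount of 0.1 gave 7 higher and 3 lower, beside 10.9% and 10.8% of all genes. No pseudocount gave the same counts, and the share of all genes was not computed for it. The median log2 ratio of the members was 0.03, against 0.01 with no minimum, 0.07 with a minimum of 5, 0.02 with scaling and 0.01 after centring on GC content. For the pathway lists, a pseudocount of 0.1 gave 3 higher genes in place of 1, and their median of 0.02 was 0.00 with a minimum of 5 and 0.01 with scaling. Over 21 single members and 62 comparisons with a setting, 3 ratios moved beyond their counting interval, those of Mapk3, Mapk8ip1 and Map2k2 on GC centring, and no called ratio changed sign. The settings without a pseudocount and with GC centring were chosen after seeing the data. No paired analysis was possible because FPKM is given by group and not by mouse, and leaving out each replicate was not run for the same reason.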
